A study of Homo sapiens with 44 samples.

Results

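The 10 genes described here encode the cargo of dense core granules and the proteins that process it. They are the granins CHGA, CHGB, SCG2, SCG3 and VGF, the convertase chaperone SCG5, the convertases PCSK1 and PCSK2, the convertase inhibitor PCSK1N, and the carboxypeptidase CPE. They were taken by gene symbol from the 19923 genes of the count tables, and all 10 were found. They were selected on measured values of these libraries: their levels, their change with inhibitor in the inputs and their ratio of RIP over input. These measures are therefore given as a description. The change of the ratio of RIP over input with treatment was not named in that choice, and it is the main test. It is built from the same libraries and from the ratios of RIP over input, so it is not independent of the choice.

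STM2457 is a small molecule that inhibits METTL3, the catalytic subunit of the complex that writes N6-methyladenosine (m6A) on mRNA. Kelly and NGP are established human neuroblastoma lines, labelled as MYCN-amplified and of WT genotype. Kelly cells had been kept with 8 µM STM2457 or with DMSO for 1 day or for 6 days, and NGP cells for 6 days. Kelly tumours had grown under the skin of nude mice that received 50 mg/kg STM2457 or vehicle into the peritoneum each day for 14 days; the labels call the vehicle DMSO. Each condition had input libraries, which are RNA-seq of the poly(A) RNA after fragmentation, and RIP libraries of the fragments bound by an m6A antibody. This gave 44 libraries in 16 groups, with 3 libraries per group in culture and 2 per group in the tumours. The labels do not state that replicates were separate cultures or animals, so the p-values measure only the spread between these libraries, which may be technical. In bulk RNA, fewer cells of a type and less RNA per cell cannot be told apart.

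Granins are acidic proteins that aggregate in the trans-Golgi network and help form dense core granules, in which neuroendocrine cells keep hormones and amines for regulated release. Chromogranin A and chromogranin B (CHGA, CHGB) are classic markers of adrenal chromaffin cells and of tumours of the sympathetic lineage such as neuroblastoma. Prohormone convertases cut the precursors inside the granule, and CPE trims the basic residues left at the cut ends. m6A on mRNA lies mostly in long exons and near stop codons, within short motifs that include the letters GGAC.

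The sequences below are stretches of coding sequence that hold that motif. For each of 6 genes the 90 coding bases inside 1 exon with the most matches to GGAC are given, 5′ to 3′ on the mRNA strand, read from the GRCh38 genome, with GGAC in capitals. The first 4 are the granins that were enriched in the RIP of Kelly cells and the last 2 are among the genes that were depleted there.
CHGA, chr14:92932570-92932659, plus strand: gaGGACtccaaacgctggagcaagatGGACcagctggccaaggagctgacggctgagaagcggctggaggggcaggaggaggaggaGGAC
CHGB, chr20:5923459-5923548, plus strand: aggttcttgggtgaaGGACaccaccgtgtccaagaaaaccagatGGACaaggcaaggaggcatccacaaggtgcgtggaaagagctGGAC
SCG2, chr2:223598845-223598934, minus strand: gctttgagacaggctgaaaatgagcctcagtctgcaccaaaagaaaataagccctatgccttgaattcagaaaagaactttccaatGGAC
VGF, chr7:101163540-101163629, minus strand: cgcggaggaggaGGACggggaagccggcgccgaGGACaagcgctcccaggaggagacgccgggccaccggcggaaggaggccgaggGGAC
SCG3, chr15:51688260-51688349, plus strand: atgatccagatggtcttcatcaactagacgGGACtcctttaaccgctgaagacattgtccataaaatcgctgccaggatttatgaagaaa
CPE, chr4:165379273-165379362, plus strand: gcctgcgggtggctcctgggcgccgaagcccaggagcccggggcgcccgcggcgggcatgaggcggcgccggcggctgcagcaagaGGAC

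The windows of CHGA, CHGB and VGF held 3 matches each, and those of SCG2, SCG3 and CPE held 1. The best windows of SCG5 and PCSK1N, which are not printed, held 2 each. SCG5 was also depleted in Kelly cells on both days, and PCSK1N at 6 days. Of 274739 adjoining 90-base tiles of coding sequence inside single exons over all genes, 33.98% held at least 1 match, 7.21% at least 2 and 1.12% at least 3. The printed windows were picked as the best of each gene, so they are not comparable with an average tile. They are not strictly comparable with each other either, since a longer coding sequence offers more windows. Among the 6 genes coding length ran from 1371 bases in CHGA to 2031 in CHGB. A match is a description, not a measured m6A site. The deposited tables hold 1 count per gene and give no position of a RIP fragment within it.

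Culture inputs held 5.49 to 31.49 M fragments, xenograft inputs 2.14 to 7.27 M and RIP libraries 4.68 to 36.5 M. Replicate inputs were spread by a biological coefficient of variation of 0.0725 (Kelly, 1 day), 0.0913 (Kelly, 6 days), 0.24 (NGP) and 0.448 (xenograft). In the fits of input and RIP libraries together it was 0.398, 0.520, 0.253 and 0.990 in the same order. All 8 neuroblastoma markers examined, among them GATA3 and MYCN, had counts in every library, with a summed level of 8248 to 14009 CPM (counts scaled to a common library total) in the inputs. TH, which makes the catecholamine precursor, was at 0.362 to 4.02 CPM in the NGP inputs. The 14 markers of stroma and blood summed to 16.3 to 122 CPM in the inputs, with the highest sum in treated NGP cells. These are human genes, so they do not measure the mouse stroma and blood of the tumours. Some RIP libraries were uneven: among treated Kelly RIP libraries, 1040 genes at 1 day and 1330 at 6 days had at most 3 counts in 1 replicate and at least 100 in another, against 37 and 48 in DMSO. In the xenograft RIP libraries these numbers were 2490 with STM2457 and 1172 with vehicle.

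CHGA, on chromosome 14 (92923150 to 92935285, plus strand, GRCh38), dominated the group. In the DMSO inputs of Kelly cells it stood at 6899, 7847 and 7006 CPM on day 1 and at 19284, 18740 and 18952 CPM on day 6. In NGP cells the values were 2469, 3110 and 3130 CPM, and in the vehicle tumours they were 20046 and 17430 CPM. The tumours overlapped with the Kelly cells at 6 days, and both lay above the Kelly cells at 1 day, which lay above the NGP cells. The mean at 6 days in Kelly was 2.62 times that at 1 day and 6.54 times that in NGP cells. CHGA was the largest gene of 12 of the 22 inputs and of 16 of the 22 RIP libraries, which included every Kelly and xenograft RIP library. It reached 11.03% of all counts in the RIP library of treated tumour 1. It made up 90.9 to 96.4% of the counts of the 10 genes in Kelly and xenograft inputs and 67.3 to 80.6% in NGP inputs.

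CHGB, the second chromogranin (chromosome 20, 5911510 to 5925353, plus strand), followed the same order of means. Its DMSO input values were 484, 480 and 446 CPM in Kelly cells at 1 day, 1083, 1130 and 1091 CPM at 6 days, 338, 414 and 377 CPM in NGP cells, and 710 and 676 CPM in the tumours. No group overlapped another. The remaining granins had other orders. SCG2, the precursor of secretoneurin (chromosome 2, 223596940 to 223602361, minus strand), was at 162 ± 19.1 CPM (SD, n = 3) in NGP cells and 35.0 ± 1.87 CPM (SD, n = 3) in Kelly cells at 6 days. SCG3, which binds CHGA and cholesterol-rich granule membrane (chromosome 15, 51681492 to 51721026, plus strand), had 252 ± 20.7 CPM (SD, n = 3) in NGP cells. In Kelly cells SCG3 was at 113 ± 8.92 CPM (SD, n = 3) at 1 day and 66.8 ± 5.04 CPM (SD, n = 3) at 6 days, a mean 1.70 times higher at 1 day. VGF, a granin-like precursor of several neuropeptides that nerve growth factor induces (chromosome 7, 101162509 to 101165569, minus strand), differed most of the granins between the days. Its DMSO inputs were at 9.31, 14.9 and 8.96 CPM at 1 day and at 50.3, 46.9 and 45.8 CPM at 6 days, a ratio of means of 4.32, and at 207, 285 and 287 CPM in NGP cells.

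The processing genes split the lines further. PCSK1, the convertase of early granules (chromosome 5, 96390333 to 96434143, minus strand), was at 9.14, 9.67 and 8.46 CPM in the NGP DMSO inputs. In Kelly inputs it had 0 to 2 counts per library, and in the xenograft inputs 0 to 8. PCSK2, the convertase of later granules (chromosome 20, 17226107 to 17484578, plus strand), was the reverse. It was at 0.903 ± 0.350 CPM (SD, n = 3) in Kelly cells at 1 day and 0.921 ± 0.440 CPM (SD, n = 3) at 6 days, and at 0 in every NGP input. SCG5, also called 7B2, which keeps the PCSK2 precursor soluble until it is activated (chromosome 15, 32641676 to 32697098, plus strand), was also near 0 in NGP inputs, which held 0 to 18 counts. In Kelly cells its mean was 26.6 ± 2.76 CPM (SD, n = 3) on day 1 and 47.2 ± 2.06 CPM (SD, n = 3) on day 6, and in the vehicle tumours, where PCSK2 was at 0, it was 24.4 ± 2.01 CPM (SD, n = 2).

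PCSK1N, also called proSAAS, an inhibitor of PCSK1 (chromosome X, 48831096 to 48835610, minus strand), was at 2.93 ± 1.31 CPM (SD, n = 3) in Kelly cells at 1 day, 27.6 ± 2.84 CPM (SD, n = 3) at 6 days and 75.6 ± 16.7 CPM (SD, n = 3) in NGP cells. The ratio of its Kelly means at 6 days and 1 day, 9.40, was the largest among the members measured on both days. CPE (chromosome 4, 165361194 to 165498547, plus strand) was at 222 ± 22.9 CPM (SD, n = 3) in NGP cells, 76.3 ± 4.12 CPM (SD, n = 3) in Kelly cells at 6 days and 38.0 ± 3.27 CPM (SD, n = 3) at 1 day. The file headers place each experiment in folders of its own, so day or line and a possible batch cannot be told apart in any of these level differences.

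**Figure D1:**
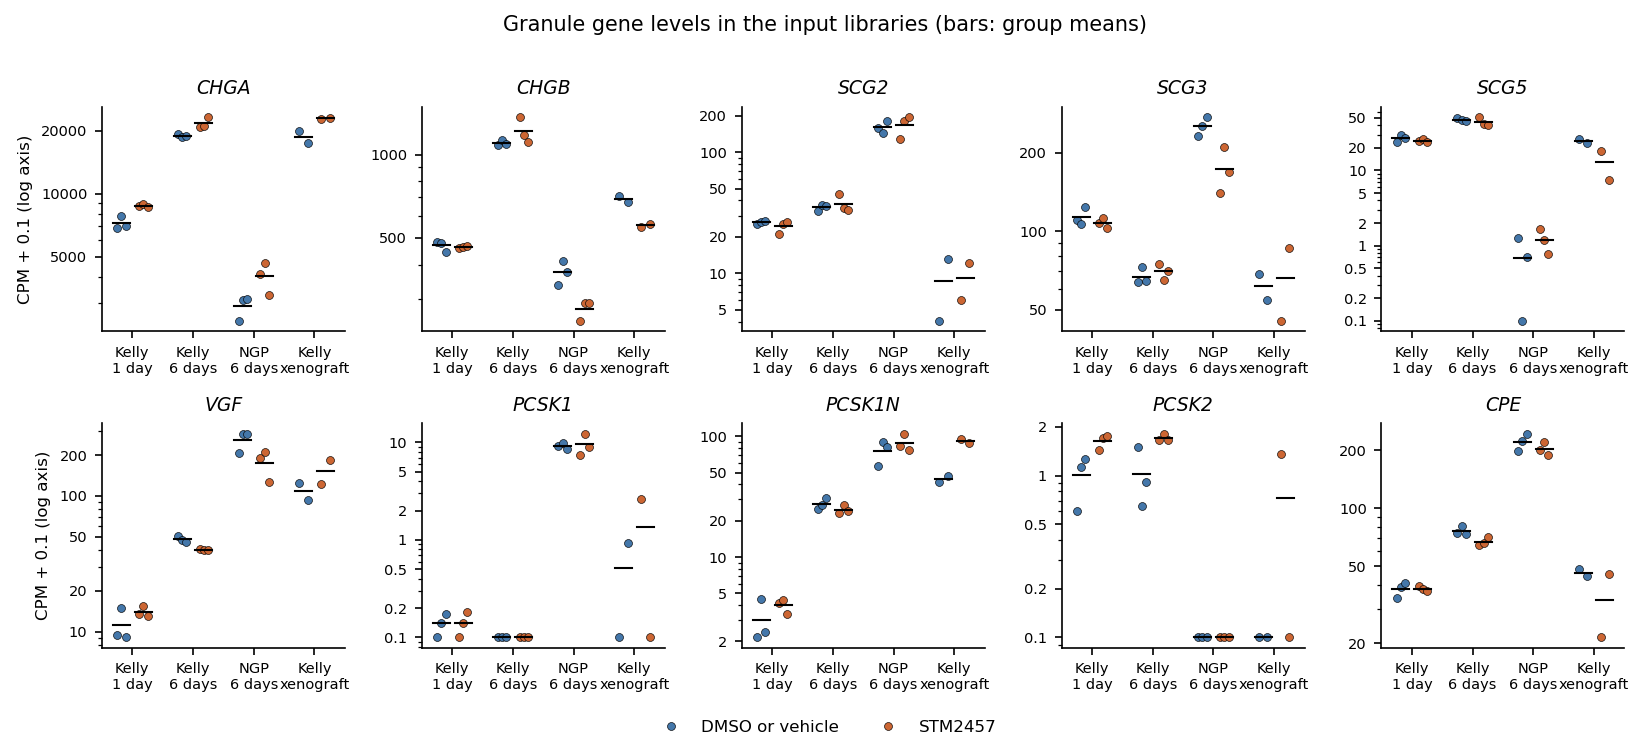
Level of each of the 10 genes in every input library, in CPM plus 0.1 on a log axis, by experiment. Points are libraries (blue DMSO or vehicle, orange STM2457) and bars are group means; CHGA lies at 2469 CPM or above in all inputs, while PCSK2 is at 0 in all NGP inputs and PCSK1 is near 0 in Kelly inputs.

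Divided by the gene length of the deposited tables, the DMSO input level of CHGA in Kelly cells at 6 days was 6280.3 CPM per kilobase, against 248 for CHGB, 24.5 for CPE, 21.5 for SCG5 and 13.6 for SCG2. In NGP cells CHGA was at 960.0 CPM per kilobase, followed by VGF at 96.9, CHGB at 84.7 and SCG3 at 79.6. The order below CHGA thus differed between the lines: VGF was second in NGP cells and seventh in Kelly cells at 6 days. By the root mean square difference of centred log2(CPM + 1) over the 22 inputs, among 9339 genes of at least 10 CPM on average, the profile nearest to that of CHGA was FEV (0.218). FEV is a transcription factor of serotonergic and chromaffin cells. OSBPL5 (0.273), HSPB1 (0.308), SMARCD3 (0.314) and PRKAR1B (0.320) came next, with a median of 1.37 over all these genes. CHGB was at 0.632, which ranked it 170, and the other members examined lay between 1.18 for SCG5 and 2.43 for SCG2.

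Inhibitor treatment was accompanied by small shifts of these genes in the inputs. CHGA had 8731, 8923 and 8624 CPM in treated Kelly cells at 1 day and 20995, 21232 and 23289 CPM at 6 days. In treated NGP cells it had 4159, 4677 and 3274 CPM, and in treated tumours 22880 and 23060 CPM. In all 4 experiments every treated input lay above every DMSO input. The share of all genes with every treated library above every DMSO library was 20.8% for Kelly at 1 day, 29.6% for Kelly at 6 days, 15.1% for NGP and 14.3% for the xenograft. The fitted log2 change was 0.25 (SE 0.0429) for Kelly at 1 day, 0.09 (SE 0.0612) for Kelly at 6 days, 0.40 (SE 0.167) for NGP and 0.42 (SE 0.0724) for the xenograft.

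The falls were found in other members. VGF in Kelly cells at 6 days was at 40.5, 39.8 and 39.9 CPM with STM2457, below its 3 DMSO libraries (log2 change -0.36, SE 0.0821). CPE behaved likewise, with 74.5, 81.0 and 73.4 CPM in DMSO and 64.3, 65.9 and 70.6 CPM in treated cells (log2 change -0.30, SE 0.0709). All treated libraries were the lower ones for 14.3% of all genes in that experiment. In NGP cells SCG3 went from 232, 252 and 273 CPM to 140, 211 and 168 CPM without overlap (log2 change -0.62, SE 0.163). VGF there was at 189, 209 and 127 CPM with STM2457, and its highest treated library lay above its lowest DMSO library (log2 change -0.65, SE 0.183). CHGB in treated NGP cells was at 251, 292 and 290.0 CPM, below all DMSO libraries, with a log2 change of -0.52 (SE 0.150). That non-overlap in the lower direction was seen for 8.53% of all genes in NGP cells.

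By edgeR's quasi-likelihood fit, adjusted over all genes by Benjamini-Hochberg, the input change of 1 of 9 members was called in Kelly cells at 1 day (CHGA higher), where 17.5% of all genes were called. At 6 days 2 of 9 were called (VGF and CPE lower), where 26.6% of all genes were called. With all 22 inputs in 1 fit, 0 members were called in Kelly cells on either day. In NGP cells 2 of 9 were called (SCG3 and VGF lower), against 4.23% of all genes, and 0 were called without DMSO replicate 2, DMSO replicate 3, STM2457 replicate 1 or STM2457 replicate 3. In the xenograft 0 of 8 were called and 0.0% of all genes, with 968 genes at an unadjusted p under 0.05 and 120 genes called by DESeq2, CHGA among them. With all 22 inputs in 1 fit, edgeR called CHGA and PCSK1N there, and the share of all genes called in that fit is not given. The members not counted had too few counts for the low-count filter. The median log2 change of the members was -0.02 for Kelly at 1 day, -0.04 for Kelly at 6 days, -0.02 for NGP and 0.22 for the xenograft, and that of all genes was 0.01, 0.00, 0.01 and -0.01.

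In the tumours PCSK1N went from 41.4 and 46.6 CPM to 95.0 and 87.2 CPM, a log2 change of 1.18 (SE 0.278), the largest of the 8 members there. CHGB was lower in both treated tumours, at 549 and 559 CPM against 710 and 676 CPM. SCG5 was lower as well, at 17.9 and 7.46 CPM against 25.8 and 23.0 CPM. Treated values below all vehicle values occurred for 27.7% of all genes in the xenograft.

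**Figure D2:**
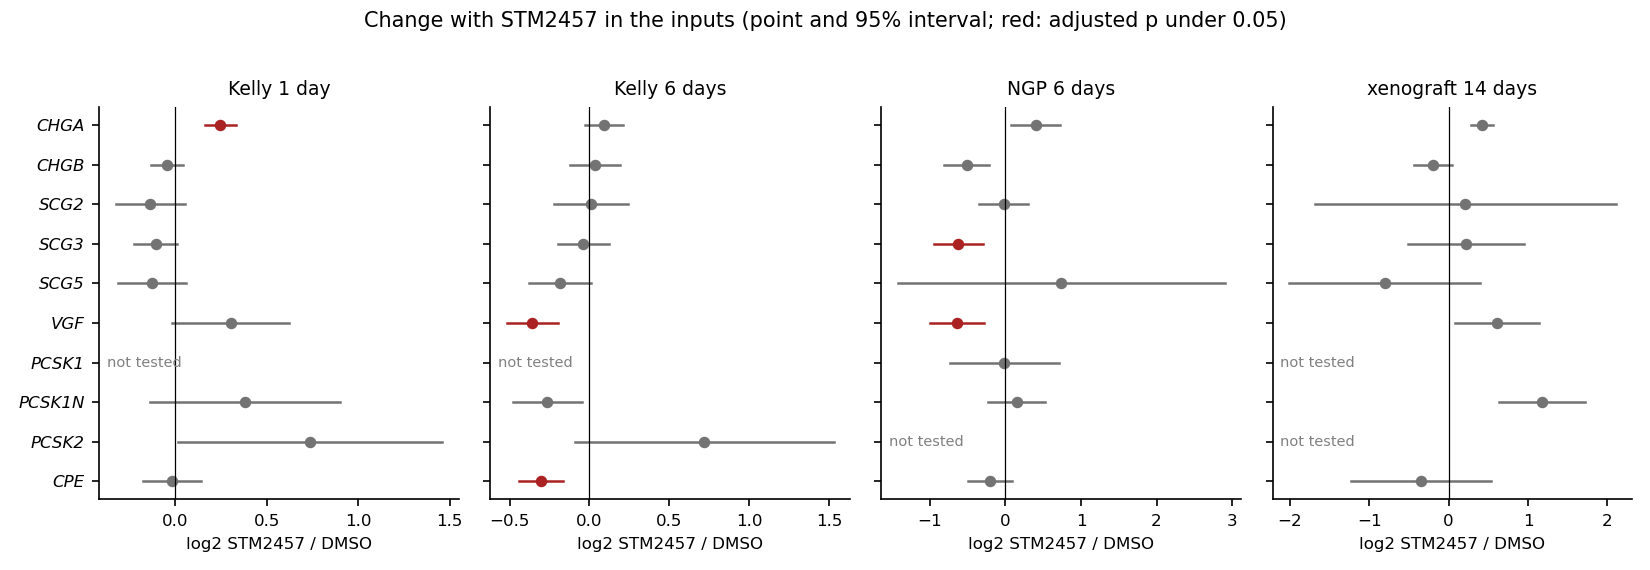
Log2 change with STM2457 in the inputs for each gene, with its 95% interval, in the 4 experiments; red marks an adjusted p under 0.05 over all genes. The CHGA points lie above 0 in all 4 panels, from 0.09 to 0.42, and VGF is red and below 0 for Kelly at 6 days and for NGP.

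A difference between responses was tested in the inputs with a treatment by experiment term. It is built from the input changes above, so it is not independent of the choice of genes. VGF was at 13.4, 15.3 and 12.9 CPM in treated Kelly cells at 1 day, higher on average than in DMSO, and below DMSO at 6 days. The response at 6 days minus that at 1 day was -0.64 (SE 0.188, log2) at an edgeR adjusted p of 0.0346, and 1 of 9 members was called where 8.41% of all genes were. That call was kept without DMSO replicate 2 or STM2457 replicate 3 of day 1 or STM2457 replicate 1 of day 6, and lost without any one of the other 9 of the 12 libraries, with values between -0.91 and -0.51. For Kelly cells minus NGP cells at 6 days 0 members were called by edgeR, against 1.36% of all genes (183 genes). DESeq2 called this difference for 430 genes, CHGB among them. That difference was 0.57 for CHGB (SE 0.164, 95% interval 0.25 to 0.89, edgeR adjusted p 0.101) and 0.61 for SCG3 (SE 0.190, 95% interval 0.23 to 0.98, edgeR adjusted p 0.144). PCSK1 and PCSK2 were at or near 0 in 1 of the lines and give no such difference.

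The antibody pulldown divided the members into 2 sets in Kelly cells. The RIP libraries of DMSO cells at 1 day held CHGA at 27455, 25459 and 24799 CPM, above its inputs by a log2 ratio of 1.90 (SE 0.0543). SCG2 was at 137, 117 and 133 CPM in RIP against 25.6, 26.3 and 26.8 CPM in input, a log2 ratio of 2.36 (SE 0.192). VGF had a log2 ratio of 1.87 (SE 0.291) and CHGB of 1.43 (SE 0.0661). The genes at the low end included CPE, with 234, 158 and 153 RIP counts and a log2 ratio of -2.60 (SE 0.796), SCG5 at -1.91 (SE 0.255) and SCG3 at -1.38 (SE 0.147). With enrichment taken as a log2 ratio of at least 1 and depletion as -1 or below, both at an edgeR adjusted p under 0.05, 7 of 9 members were in one or the other class, where 55.5% of all genes were. PCSK1N and PCSK2 were in neither. Depletion is relative to the TMM scale: with factors from mitochondrial mRNAs the median ratio of all genes moved by 1.64 at 1 day and 4.87 at 6 days, and SCG3 was at 0.26 at 1 day and SCG3, SCG5, CPE and PCSK1N were above 0 at 6 days.

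At 6 days the same 4 granins were enriched in Kelly cells, CHGA at a log2 ratio of 1.55 (SE 0.241), CHGB at 1.37, SCG2 at 2.25 and VGF at 2.07. SCG3 (-1.23), SCG5 (-2.55), CPE (-2.34) and PCSK1N (-2.20) were depleted. This placed 8 of 9 members in a class, against 53.1% of all genes, and 5 without DMSO replicate 3, where CHGB, PCSK1N and CPE were in neither class. With GC bin offsets, added after the data had been seen, SCG3 was at -0.98 at 1 day and -0.66 at 6 days and no longer counted as depleted. In NGP cells CHGB (1.56) and SCG2 (2.61) were enriched and PCSK1N (-2.37) and CPE (-1.07) depleted, which is 4 of 9 against 40.0% of all genes. CHGA in NGP cells had RIP levels of 6130, 2669 and 2912 CPM, so that replicate 1 stood well above its inputs and the other two overlapped with them, and the log2 ratio was 0.31 (SE 0.261). VGF in NGP cells was at -0.17 (SE 0.272) and SCG3 at 0.20 (SE 0.196). In the xenograft CHGB alone was called (log2 ratio 2.00, SE 0.452; 1 of 8 against 3.75% of all genes), while the values of CHGA, SCG2 and VGF were 1.98, 2.28 and 2.17, with larger errors (SE 0.654, 1.23 and 0.652). The CHGB call was lost with RLE or mitochondrial factors. Leaving out a replicate leaves 1 library in a group, so those calls are not counted. Without the low-count filter 3 members were called (CHGA, CHGB and VGF), and the share of all genes there is not given. DESeq2 called 4 members (these and PCSK1N), and 2199 of all genes against 474 by edgeR.

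The GC content of the RIP libraries moved with the difference between the lines. Weighted by counts and without the 10 genes, the mean transcript GC content was 47.5 to 49.2% in NGP DMSO RIP libraries, 51.5 to 52.0% in Kelly cells at 1 day and 53.9 to 55.0% at 6 days. With GC bin offsets the NGP ratio of CHGA was 1.29 and enriched, and that of VGF was 0.89. SCG3 then turned to -0.61 in NGP cells. With mitochondrial factors the NGP ratio of CHGA was 1.19 and enriched, beside a median of all genes of 0.80. The ratio was not compared between the lines by a test.

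The transcripts differed in build in a way that went with this ratio. The longest coding segment within a single exon was 1766 bases in CHGB, 1851 in SCG2, 1845 in VGF and 482 in CHGA. It was 216 bases in SCG3, 226 in SCG5 and 307 in CPE, with a median of 300 over all genes. Over all genes of Kelly cells at 1 day, the median log2 ratio of RIP over input was -1.40 for segments under 200 bases, -0.86 from 200 to under 400, 0.92 from 400 to under 1000 and 1.66 from 1000 bases on. CHGA lay above the median of its length class, SCG2 and VGF above and CHGB below that of the longest class, and CPE, SCG5 and SCG3 below that of theirs. PCSK2, with a segment of 484 bases, was at 0.53 (SE 1.23), below its class median of 0.92. PCSK1N, with 473 bases and a GC content of 74.2%, was further below the same median, at -2.16 (SE 1.57). The Spearman correlation of segment length and ratio across genes was 0.55 for Kelly at 1 day (13362 genes), 0.58 for Kelly at 6 days (13062), 0.36 for NGP (12821) and 0.43 for the xenograft (12387). With transcript GC content it was 0.06, 0.10, -0.49 and 0.05 in the same order, and with GGAC density 0.09, 0.13, -0.33 and 0.09, so in NGP the correlation with GC content was larger in size than that with segment length. These are descriptions across genes measured in the same libraries, and genes are not independent replicates.

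GGAC matches did not order the members in the same way. Their density over the transcript was 6.50 per kilobase in CHGB, 5.88 in VGF, 5.85 in PCSK1N and 5.04 in CHGA, against a median of 3.75 over all genes. SCG2, with the highest ratio in Kelly and NGP cells, had 2.05 per kilobase, close to SCG3 with 2.22, and CPE had 1.16.

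**Figure D3:**
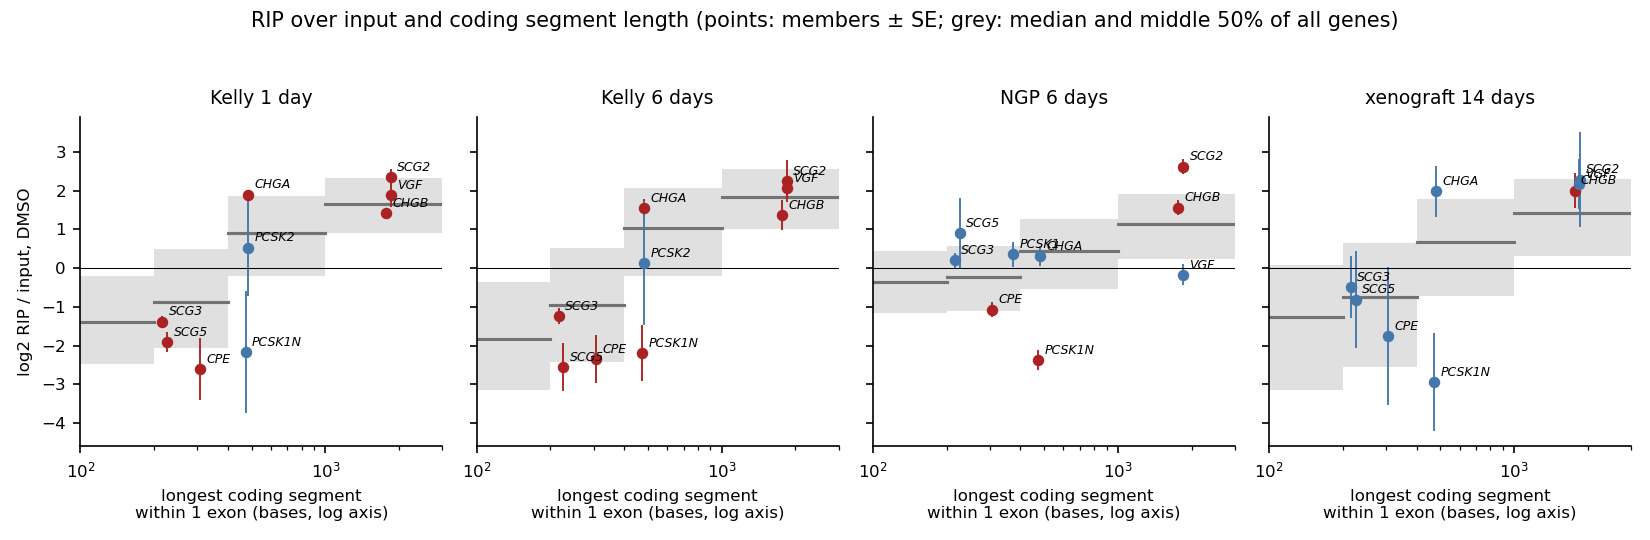
Log2 ratio of RIP over input in DMSO libraries (± SE) against the longest coding segment within 1 exon, in bases on a log axis, for the tested members of each experiment. Red points were called enriched or depleted and blue points were not; grey bands show the median and the middle 50% of all genes per length class. On the TMM scale, in Kelly cells CHGB, SCG2 and VGF lie at the upper right, SCG3, SCG5 and CPE at the lower left, and PCSK1N lies below its class.

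Whether the inhibitor changed the ratio of RIP over input was tested with a treatment by library type term. On day 1 in Kelly cells, CHGA in treated RIP libraries was at 19660, 19544 and 18777 CPM, below all 3 DMSO RIP libraries, while its inputs were higher. The ratio fell by 0.60 on the log2 scale (SE 0.0744, edgeR adjusted p 0.000154), a ratio 1.52 times lower. CHGB went from 1202, 1226 and 1215 CPM to 935, 894 and 797 CPM in RIP at nearly the same input level, and its ratio fell by 0.36 (SE 0.0918, edgeR adjusted p 0.0179). SCG3, a gene depleted in RIP, moved the other way: its RIP libraries were at 44.8, 40.4 and 40.4 CPM in DMSO and at 101, 69.0 and 66.6 CPM with STM2457. The treated values all exceeded the DMSO values, and the ratio rose by 1.09 (SE 0.205, edgeR adjusted p 0.00306), against -0.35 with factors from mitochondrial mRNAs, which moved the median of all genes by -1.44. In the RIP libraries of that day, 18.7% of all genes had every treated value below every DMSO value and 15.005% had every one above.

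These were 3 of 9 members called where 17.2% of all genes were called. SCG2 in treated RIP was at 98.9, 55.1 and 93.4 CPM, below its DMSO libraries, with a change of the ratio of -0.44 (SE 0.260, 95% interval -0.95 to 0.06, edgeR adjusted p 0.291). VGF had a change of -0.61 (SE 0.399, 95% interval -1.39 to 0.17, edgeR adjusted p 0.355), and its RIP groups overlapped. The other 4 members tested ranged from -1.14 for PCSK1N to 0.18 for CPE, and the median over all genes was -0.03.

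The GC content of the RIP libraries and the mitochondrial share moved with these falls. Mean transcript GC content without the 10 genes was 51.5 to 52.0% in the DMSO RIP libraries and 51.0 to 51.1% in the treated ones. Mitochondrial mRNAs took 0.794 to 0.920% of the DMSO RIP counts and 2.30 to 2.48% of the treated ones. With GC bin offsets the changes of CHGA and CHGB were both -0.13 and no longer called (edgeR adjusted p 0.348 and 0.519), while SCG3 remained called at 0.96 (edgeR adjusted p 0.00407). The CHGB call was also lost without DMSO replicate 2 or DMSO replicate 3 (edgeR adjusted p 0.0731 and 0.230).

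**Figure D4:**
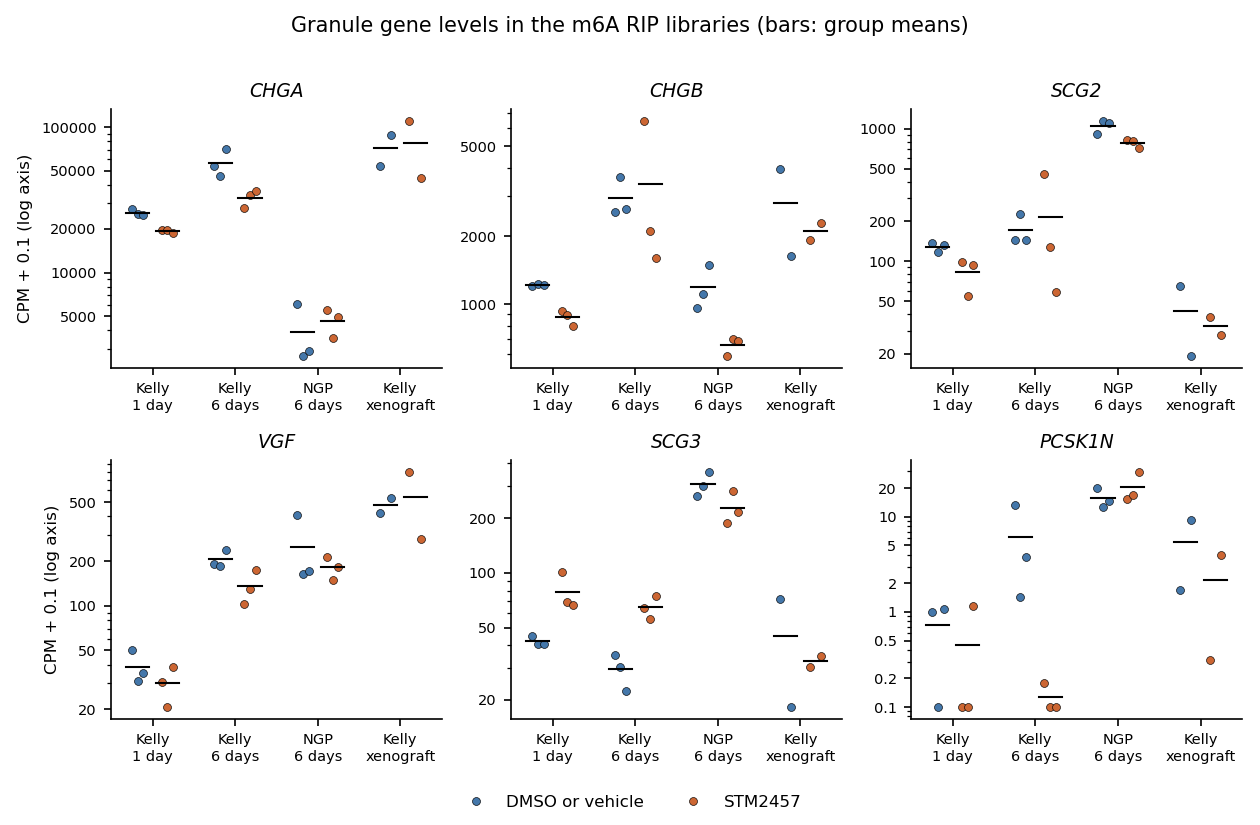
Level of 6 of the genes in every RIP library, in CPM plus 0.1 on a log axis, by experiment. Points are libraries (blue DMSO or vehicle, orange STM2457) and bars are group means. In Kelly cells at 1 day the treated points of CHGA and CHGB lie below the DMSO points and those of SCG3 above (CPM scale). PCSK1N in Kelly cells at 6 days falls from 13.2, 1.34 and 3.70 CPM to 0.078 CPM or less.

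At 6 days the SCG3 change in Kelly cells had the same direction. Its RIP libraries were at 35.2, 30.4 and 22.3 CPM in DMSO and at 63.6, 55.6 and 74.6 CPM with STM2457, without overlap, at inputs that differed little. The ratio rose by 1.43 (SE 0.294, edgeR adjusted p 0.0336), against -0.83 with mitochondrial factors, which moved the median of all genes by -2.40. Non-overlap in the higher direction was seen for 7.69% of all genes in these RIP libraries and in the lower direction for 13.9%. PCSK1N had 143, 15 and 39 RIP counts in DMSO and 2, 0 and 0 with STM2457, while its inputs were at 25.0, 27.1 and 30.6 CPM and at 23.1, 26.7 and 24.1 CPM. Pooled, this is 197 counts in 32.5 M against 2 in 62.3 M, a level 189 times lower with an exact counting interval of 51.5 to 1569, which covers counting error only. DMSO replicate 1 held 143 of the 197 counts, and without it the level was 77.6 times lower (interval 20.5 to 657). The fitted log2 change of its ratio was -6.87 (SE 1.26, edgeR adjusted p 0.0228); with 2 treated libraries at 0 it depends on the prior count of the fit. Both genes make 2 of 9 members called where 2.06% of all genes were.

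Neither call at 6 days was robust to the libraries used. Both were kept without STM2457 replicate 1 and lost without any one of the other 5 replicates, whose input and RIP libraries were left out together (edgeR adjusted p 0.0691 to 0.200 for SCG3 and 0.0627 to 0.125 for PCSK1N). With GC bin offsets SCG3 was at 1.36 and not called (edgeR adjusted p 0.131). A fit with a replicate block called neither gene. The treated RIP libraries are the ones in which many genes drop to near 0 in single replicates, as given above, and the part of that unevenness in the PCSK1N value was not tested. CHGA in treated RIP at 6 days was at 27690, 33961 and 36475 CPM, below the DMSO values of 54223, 45969 and 71294 CPM. Its change of ratio was -0.64 (SE 0.333, 95% interval -1.30 to 0.01, edgeR adjusted p 0.368), close in size to that at 1 day and with a larger error. CHGB at 6 days was spread by 1 treated library, with 6463, 2097 and 1608 CPM. The 6 members tested other than CHGA, SCG3 and PCSK1N ranged from 0.02 for VGF to 1.08 for CPE, beside a median of 0.20 over all genes.

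In the other 2 experiments no change of the ratio was called. In NGP cells edgeR called 0 of 9 members and 0.0% of all genes, with 764 genes at an unadjusted p under 0.05 and 2 called by DESeq2. CHGA in treated NGP RIP libraries was at 5493, 3563 and 4947 CPM, within the range of the DMSO libraries, and its change of ratio was -0.10 (SE 0.368, 95% interval -0.83 to 0.62). CHGB in RIP went from 965, 1105 and 1485 CPM to 589, 699 and 686 CPM, and SCG2 from 921, 1148 and 1102 CPM to 830.4, 816 and 714 CPM, each without overlap, as for 10.6% of all genes. Their changes of ratio were -0.32 (SE 0.268, 95% interval -0.85 to 0.20) and -0.39 (SE 0.267, 95% interval -0.91 to 0.14). The 8 members other than CHGA lay between -0.44 for SCG5 and 0.27 for PCSK1N. SCG3, which rose in RIP in Kelly cells, was at 266, 303 and 359 CPM in DMSO and 188, 283 and 215 CPM in treated NGP RIP libraries. In the xenograft edgeR called 0 of 8 members and 0.0% of all genes, with 809 genes at an unadjusted p under 0.05 and 159 called by DESeq2. CHGA there was at 54466 and 88568 CPM in vehicle and at 110332 and 44996 CPM in treated RIP libraries, so that the treated libraries enclosed the vehicle ones. Its change was -0.09 (SE 0.892), and the 7 other members lay between -2.68 for PCSK1N and 1.59 for CPE. CPE had 0 counts in 1 treated tumour RIP library and 847 in the other. The change of the ratio was not compared between experiments by a test.

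**Figure D5:**
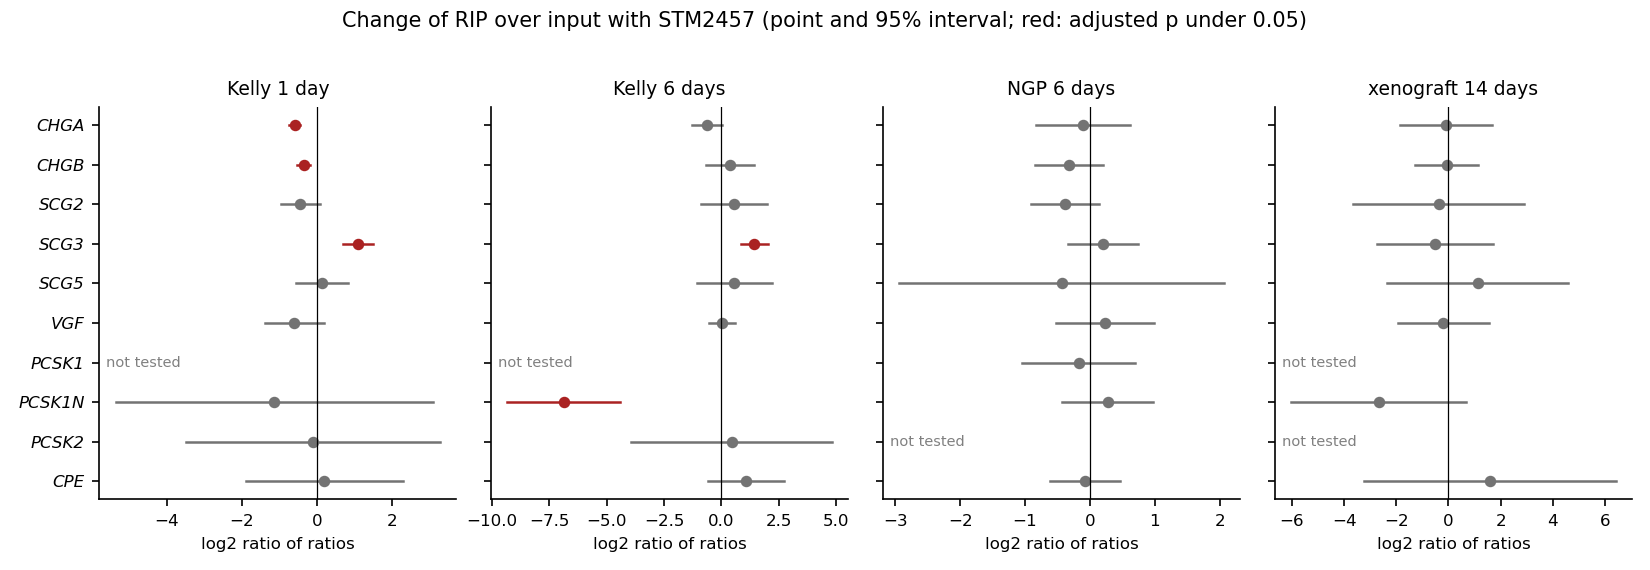
Change of the log2 ratio of RIP over input with STM2457 for each gene, with its 95% interval, in the 4 experiments; red marks an adjusted p under 0.05 over all genes. On the TMM scale drawn, SCG3 is red and above 0 in both Kelly panels (1.09 and 1.43; below 0 with mitochondrial factors), CHGA and CHGB are red and below 0 in Kelly cells at 1 day, PCSK1N is at -6.87 in Kelly cells at 6 days, and the xenograft intervals are the widest.

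Of 66 further genes of the granule pathway, 64 were tested in the inputs of Kelly cells at 1 day, with 4 rising and 9 falling. That is 20.3% of those tested, beside 17.5% of all genes. SLC18A1, the vesicular monoamine transporter of chromaffin granules, fell by 0.56 on the log2 scale (SE 0.0703, edgeR adjusted p 4.15e-05), from 81.5 to 56.4 CPM on average. VPS52, a subunit of tethering complexes in granule maturation, fell by 0.35, and CPLX1, a complexin that clamps release, rose by 0.38. At 6 days 7 rose and 13 fell of 62, which is 32.3% beside 26.6% of all genes. Among them 5 of the 8 granule membrane genes fell, where 1875 of 12773 genes fell in all, and no test of the list was made. PCSK5, a convertase, fell by 2.05 (SE 0.314, edgeR adjusted p 0.000150), from 4.01 to 1.04 CPM. SYTL4, a Rab27 effector on granules, rose by 0.99 (SE 0.262, edgeR adjusted p 0.00993), from 2.59 to 5.38 CPM.

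In NGP cells 4 rose and 3 fell of 60, which is 11.7% beside 4.23% of all genes, and these lay among the 30 tested genes of docking, priming and release, again with no test of the list. SCGN, a calcium sensor of secretion, rose by 4.22 (SE 0.945, edgeR adjusted p 0.0105), from 0.217 to 5.04 CPM. RAB26 fell by 2.46 (SE 0.299, edgeR adjusted p 1.37e-05), from 33.2 to 6.22 CPM, and RAB3B, a Rab of docked granules, rose by 1.14. In the xenograft 0 of 56 were called. The median log2 change of the further genes was -0.04, -0.02, 0.00 and -0.05 in the 4 experiments in this order, near that of all genes. INSM1, a transcription factor of neuroendocrine cells, had changes of 0.45, 0.02, 0.06 and -0.32, none of them called. REST, the repressor of many neuronal and granule genes, was at 0.42 in Kelly inputs on day 1 and 1.29 in NGP inputs, neither called (edgeR adjusted p 0.306 and 0.190), and had too few counts in the other 2 experiments.

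The change of RIP over input was called higher for 7 and lower for 2 of 64 of these genes in Kelly cells at 1 day, which is 14.1% beside 17.2% of all genes. SNAP25, a SNARE of the plasma membrane that drives fusion, rose by 1.72 (SE 0.181, edgeR adjusted p 4.56e-05). RAB2A, which acts in granule maturation, rose by 1.62, and STX1A, the SNARE partner of SNAP25, by 1.22. With mitochondrial factors SNAP25 was at 0.27, RAB2A at 0.16 and STX1A at -0.23, and all 37 of the further genes then called were lower. Those factors moved the median of all genes by -1.44. The share of all genes called with them is not given, so the 37 do not set these genes apart. At 6 days SNAP25 alone was called, with 1.83 (SE 0.391, edgeR adjusted p 0.0354; -0.38 with mitochondrial factors). By edgeR 0 of 61 were called in NGP cells and 0 of 59 in the xenograft.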

How the data were processed

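Input and RIP libraries of 4 experiments were measured as raw fragment counts per gene, which the authors deposited as 1 table per library; per the file headers they were made with featureCounts 1.5.3 over exons of protein-coding GENCODE 33 genes (GRCh38). The submitters' processing notes also name Trimmomatic 0.36, HISAT2 2.1.0 and deepTools 2.0. The headers name no strand option; exons of the 10 genes overlap no other gene of the tables. Spike-in RNAs are not analysed here.

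Groups follow the labels. CPM was computed on each library's total. Tests were edgeR 4.0.16 quasi-likelihood tests (R 4.3.3) on TMM-scaled libraries. Genes were kept by filterByExpr at a count of 10 and a total of 15, and p-values adjusted by Benjamini-Hochberg over all genes tested (threshold 0.05), each experiment fitted alone; the fits were tested on simulated data. Standard errors come from the log2 change and F, and 95% intervals are normal. Alternatives were RLE factors, DESeq2 1.42.0, no low-count filter, a replicate block and all 22 inputs in 1 fit. Further ones were totals without the members and factors from 13 mitochondrial mRNAs. Each input library was also left out, and in the RIP fits the input and RIP library of 1 number together. Offsets in 20 GC bins were added after seeing the data. Transcript features and coding windows come from GENCODE 44 canonical transcripts, with a match for 95.36% of genes; 4 of the 8 VGF exons of the tables are identical there, and all exons of the other members. Of 40 pairs of replicates, none agreed within sampling noise (lowest chi-square per degree of freedom 2.73).

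The members and lists were chosen with earlier results of these data known. Named are all members, REST, INSM1, the 5 profiles nearest to CHGA and, per comparison, the 3 called further granule genes with the largest log2 change; 1 gene this rule names is not reported here. Markers were neuroblastoma (8 genes), stroma and blood (14) and Schwann (at most 5.58 CPM in the inputs). Same-numbered replicates had correlations between -0.354 and 0.273, and no pairing was assumed in the main fits. With 2 or 3 libraries per group these correlations cannot exclude a pairing. No folder of the headers holds more than 1 experiment.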

Additional observations from a re-analysis of the deposited data

Results flagged for a closer look

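The response of VGF to STM2457 in the Kelly inputs differed between the 2 days by an interaction test. The interaction of treatment and day, 6 days minus 1 day, was -0.64 on the log2 scale (SE 0.188, edgeR adjusted p 0.0346), from input changes of 0.30 (SE 0.164) at 1 day and -0.36 (SE 0.0821) at 6 days. VGF stood at 8.96 to 15.3 CPM in the 6 inputs of day 1, with 836 counts summed over the DMSO inputs and 1021 over the STM2457 inputs. The sums on day 6 were 1773 and 2644. The days lie in separate folders of the file headers, and day and a possible batch cannot be told apart. The call was lost without any one of 9 of the 12 libraries, and 1 of 9 members was called beside 8.41% of all genes. The test is built from input changes on which the genes were selected, so it is not independent of that choice.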

How the results depend on the processing

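Members called in the inputs numbered 0 in Kelly cells at 1 day, 0 at 6 days, 4 in NGP cells (CHGA, CHGB, SCG3 and VGF) and 2 in the xenograft (CHGA and PCSK1N) when all 22 inputs shared 1 fit. In the xenograft DESeq2, no low-count filter and the replicate block each called 1, CHGA. For RIP over input, mitochondrial factors called 4 in Kelly cells at 1 day. In the xenograft the count was 0 with RLE factors, the replicate block or mitochondrial factors, 2 with GC offsets, 3 without the filter and 4 with DESeq2. For the change of the ratio at 1 day it was 5 with mitochondrial factors and 1 with GC offsets (SCG3). At 6 days it was 0 with the replicate block, where SCG3 was at 1.45 and PCSK1N at -6.38, and 1 (PCSK1N) with the members left out of the totals or with GC offsets. For the response of Kelly minus NGP cells DESeq2 called 1, CHGB. The block changed no other count of members by over 1.5 times. CHGB at 1 day was also lost without the low-count filter (-0.22, edgeR adjusted p 0.134). Except for the DESeq2 numbers given above, the genes called over all are not given for these alternative fits. These counts therefore do not set the members apart from other genes.

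Mitochondrial factors shifted the median of all genes by 1.64, 4.87, 0.71 and 2.18 for RIP over input, and by -1.44, -2.40, -0.31 and -0.46 for its change (Kelly cells at 1 and 6 days, NGP cells, xenograft). Under them RIP over input of SCG3 was 0.26 at 1 day and 3.56 at 6 days, and at 6 days that of SCG5 was 2.28, of PCSK1N 2.48 and of CPE 2.45, all below the median. The change of SCG3 was -0.35 and -0.83, which is 1.11 and 1.37 above the median. With GC offsets the change of VGF at 1 day was 0.11 and that of CHGA in the xenograft 0.16. The cause was not tested.

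Further granule genes called in the inputs with all 22 in 1 fit numbered 0 (Kelly, 1 day), 7 (6 days) and 11 (xenograft). The share of all genes called under these settings is not given. For the change of the ratio they numbered 37 with mitochondrial factors at 1 day, where the median of all genes moved by -1.44. At 6 days they numbered 3 with DESeq2, 15 with mitochondrial factors, and 0 with the block, without the members or with GC offsets. In the xenograft they numbered 1 with DESeq2. Over all genes DESeq2 called 907 for Kelly at 6 days and 159 in the xenograft, and the other shares are not given. For the response of 6 days minus 1 day the further granule genes numbered 18 without the filter. The summed level of the members in Kelly cells at 6 days was 4.79 times that in NGP cells, and 5.40 times with TMM library sizes.

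Leaving out each input library in turn gave 1 to 3 members called in Kelly inputs at 1 day (9.32 to 18.1% of all genes). It gave 2 to 3 in Kelly cells at 6 days (19.3 to 27.7%) and 0 to 3 in NGP cells (1.02 to 3.66%). NGP cells had 0 without DMSO replicate 2 or 3 or treated replicate 1 or 3. The xenograft, left with 1 library in a group, is not counted here. In the RIP fits the input and RIP library of 1 replicate number were left out together. For RIP over input this gave 6 to 7 in Kelly cells at 1 day (50.7 to 57.5% of all genes). At 6 days it gave 5 to 8 (43.2 to 56.8%), and in NGP cells 4 (37.3 to 39.5%). For the change of the ratio the counts were 2 to 3 (10.4 to 18.0%), 0 to 2 (0 to 5.98%) and 0 (0 to 0.0075%). The responses had 0 to 2 and 0 to 1. Further granule genes numbered 5 to 14, 17 to 21 and 2 to 6 in the inputs, in the same order. They numbered 5 to 12 and 0 to 4 for the change in Kelly cells, and 6 to 16 and 4 to 8 for the responses. The shares of all genes in these fits are those given above for the members. The change of CHGA ran from -0.67 to -0.50 (Kelly, 1 day), from -0.40 to 0.45 (NGP) and from -1.24 to 0.56 (xenograft). The xenograft had the lowest totals, with inputs down to 2.14 M, as well as 2 libraries per group and the largest spread, and which of these limits its calls was not tested.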
